A study of Mus musculus with 2 samples.

Results

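The natriuretic peptide locus was examined as the window on mouse chromosome 4 from 147200001 to 147550000 (mm9), which holds the 2 genes Nppa and Nppb by the rule that set it, which was not checked against an mm9 annotation. The rule set the window by gene position and by no measured value, but its genes were chosen with earlier results of these data known. It spans 350 bins of 1 kb, where 2187724 bins of 1 kb on chromosomes 1 to 19 and X held a read in either library. Of the 3597 listed heart peaks and the 2786 listed midbrain peaks of the transcriptional coactivator p300, 0 of either list had its midpoint in the window, so the locus is described by its reads and its coverage.

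Nppa encodes atrial natriuretic peptide and Nppb encodes brain natriuretic peptide, hormones that heart muscle cells release and that lower blood volume and pressure through receptors that make cyclic GMP. Both genes are used as markers of developing chamber heart muscle and are switched on again in the stressed adult ventricle. p300 is a histone acetyltransferase that DNA-binding factors bring to enhancers and promoters, and its presence in a chromatin immunoprecipitation (ChIP-seq) library is widely used to find active enhancers.

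The heart group and the midbrain group were tissues dissected at embryonic day 11.5 from mouse embryos of the CD-1 strain, of both sexes and with no treatment or genetic change named in the labels. Each group is 1 library from a pool of about 150 embryos, so there was no replicate check, no test between tissues was possible, and every statement holds for these libraries. There were 1303861 aligned reads for heart and 5869671 for midbrain, so that 1 read was worth 0.767 reads per 1000000 aligned reads (rpm) in heart and 0.170 rpm in midbrain. Whole tissue was used, so fewer cells with p300 at a site and less p300 per cell cannot be told apart, and with no expression values the tissue labels were not checked against marker genes.

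The promoters of both genes of the locus are shown for their sequence. They are the 250 bases before the annotated gene start on the plus strand, from RefSeq on build GRCm38.p6, at chr4:147985650-147985899 for Nppb and chr4:148000472-148000721 for Nppa. Capitals mark matches to the short motifs searched on both strands, which were AGATAA for GATA factors, AGGTGT for T-box factors, AAGTG for NKX2-5, GGAATG for TEAD factors, and the MEF2 motif and the CArG box of SRF by their usual consensus.
Nppb promoter: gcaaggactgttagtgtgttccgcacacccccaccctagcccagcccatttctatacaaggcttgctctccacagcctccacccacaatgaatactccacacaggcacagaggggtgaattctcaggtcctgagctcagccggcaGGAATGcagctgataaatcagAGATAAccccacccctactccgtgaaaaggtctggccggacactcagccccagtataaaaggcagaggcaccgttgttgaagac
Nppa promoter: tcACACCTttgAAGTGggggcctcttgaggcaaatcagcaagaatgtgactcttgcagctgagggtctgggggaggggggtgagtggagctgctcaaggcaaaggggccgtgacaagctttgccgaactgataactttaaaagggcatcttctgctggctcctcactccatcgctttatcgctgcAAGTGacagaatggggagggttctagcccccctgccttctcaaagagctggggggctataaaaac

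The Nppb promoter held 1 match to AGATAA, 84 to 79 bases before the start, and 1 match to GGAATG, 105 to 100 bases before it. GATA4 is a zinc finger factor of the early heart, and TEAD factors act in heart muscle growth. The Nppa promoter held 1 match to AGGTGT on the minus strand, 248 to 243 bases before the start, and 2 matches to AAGTG, 239 to 235 and 65 to 61 bases before it. TBX5 is a T-box factor and NKX2-5 a homeodomain factor of the early heart. No match overlapped another. Neither promoter held a match to the MEF2 motif or to the CArG box. Among 32851 RefSeq promoters cut to the same length, 9.99% held AGATAA, 12.6% GGAATG, 11.8% AGGTGT and 40.7% AAGTG, and 2.92% and 1.47% held the MEF2 motif and the CArG box. A match describes the letters only and shows no bound site. These positions belong to a later genome build than the p300 data and were not carried over to mm9, so no bin below is assigned to either promoter.

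On chromosome 4 the protein-coding genes just before Nppb are 2510039O18Rik, Plod1, a collagen lysyl hydroxylase, and Mfn2, which fuses mitochondria. Nppa follows Nppb directly. The next gene after Nppa is Clcn6, a chloride transporter of the endosome. This order is that of the RefSeq annotation on GRCm38.p6, and the reads described below may belong to any gene of the neighbourhood. The other genes of the natriuretic peptide pathway (Nppc, Npr1, Npr2, Npr3, Corin, Furin, Mme, Prkg1, Prkg2, Pde2a, Pde5a and Pde9a) could likewise not be placed on mm9. Of these 12 genes, 10 had a RefSeq promoter and Prkg2 and Pde9a had none in the table. Within them AGATAA matched in 2 genes (Pde2a and Prkg1), AGGTGT in 1 (Npr2), GGAATG in 1 (Mme) and AAGTG in 4 (Furin, Pde2a, Pde5a and Prkg1). A gene counted if any of its promoters matched, while over all promoters the shares were 9.99%, 11.8%, 12.6% and 40.7% in that order. With 10 genes these counts are a description and no result about the pathway.

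The first question was how far the listed p300 peaks lie from the edges of the window. Distances to the genes themselves were not measured. The window lies in long stretches without a listed peak in either tissue. The nearest heart peak before the window lay at 144855375 to 144855946 (rank 974), 2344 kb from its start, and the nearest after it at 148157173 to 148158115 (rank 837), 607 kb from its end. These neighbours stood 3.30 Mb apart, against a median of 0.205 Mb between neighbouring heart peaks, and 163 of 3577 such gaps (4.56%) were at least as long. The nearest midbrain peaks lay at 142869403 to 142870323 (rank 251) and at 148259403 to 148260229 (rank 1273). Their gap of 5.39 Mb was reached by 78 of 2766 midbrain gaps (2.82%). Each gap counts equally in these shares of heart and midbrain gaps. A long gap covers more positions, so the shares do not tell how often a locus lies in a gap this long. A window of this length without a heart peak was common in itself. When chromosomes 1 to 19 and X were divided into windows of the same length, 5199 of the 7233 windows with at least 100 reads over both libraries (71.9%) held no heart peak, and 4246 (58.7%) held no peak of either list.

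The reads of the window were compared next. With reads placed at the centre of the lengthened read, the window held 249 heart reads, or 191.0 rpm (exact Poisson 95% interval 168 to 216), and 751 midbrain reads, or 128 rpm (interval 119 to 137). The heart library was higher and the intervals did not overlap. The heart over midbrain ratio was 1.49 (exact conditional binomial 95% interval 1.29 to 1.72). These intervals cover counting error only, since each tissue has 1 library and the spread between embryo pools was not measured. An interval above 1 was itself frequent, at 26.5% of all windows of this length, while 38.7% had an interval below 1.

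The size of the ratio was less common than its direction. The median ratio was 0.927 over all windows, and 606 of them (8.38%) exceeded the natriuretic peptide window. Among the 4246 windows without a peak of either list, the median was 0.815, the 95th percentile 1.398, and 123 windows (2.90%) had a higher ratio. Windows with 1 or more heart peaks had a median of 1.25 and those with 3 or more a median of 1.48. The locus thus had no listed peak and a ratio near the middle of that seen in windows with 3 or more heart peaks. Its read counts were lower than in most of those windows, which held medians of 302 heart and 904 midbrain reads. Of them, 84.3% held at least as many heart reads as the locus and 91.2% at least as many midbrain reads. The 249 heart reads of the locus compare with a median of 135 in windows without any peak, where 5.11% held as many. Its 751 midbrain reads compare with a median of 767 in those windows without any peak. Adjoining windows of the same length had lower ratios, although the interval of the later one just met that of the locus. The one before had a ratio of 0.831 (interval 0.675 to 1.015) from 115 heart and 623 midbrain reads, and the one after had a ratio of 1.097 (interval 0.928 to 1.29) from 182 and 747.

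**Figure D1:**
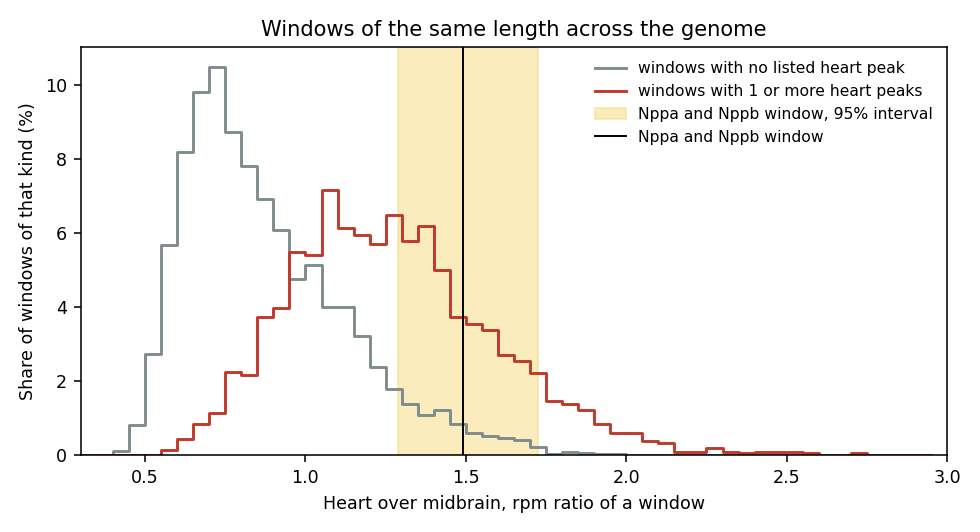
Share of genome windows (vertical axis, in percent of windows of that kind) against their heart over midbrain ratio of rpm (horizontal axis), drawn for windows with no listed heart peak and with 1 or more. The vertical line is the Nppa and Nppb window at 1.49 and the band its 95% counting interval, which lies to the right of most windows without a heart peak.

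Fewer of the heart reads of the window were aligned over their full length. All 36 bases were aligned for 215 of its 249 heart reads (86.3%, exact Clopper-Pearson 95% interval 81.4 to 90.4), against 93.1% of the heart library, and 1.30% of the windows had a share as low. In midbrain the share was 83.6% (interval 80.8 to 86.2), against 86.0% of that library. With only fully aligned reads, scaled to such reads, the ratio was 1.42 (interval 1.21 to 1.67). Reads of both strands were present in near equal number in heart, with 123 plus and 126 minus reads (49.4% plus, interval 43.0 to 55.8). The midbrain had fewer plus than minus reads, 346 against 405 (46.1% plus, interval 42.5 to 49.7).

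The position of the heart reads within the locus was then followed in steps. In 7 parts of 50 kb, the ratio was 1.67, 1.501, 2.25, 1.70, 1.97, 0.825 and 1.061 from the first to the last. The interval lay above 1 for the ratios of 1.67, 2.25, 1.70 and 1.97 and included 1 for the others. The share of all 50 kb parts of the genome with such an interval was not counted. Whether these intervals are unusual for parts of this length is therefore not known. Over the first 250 kb the ratio was 1.83 (interval 1.54 to 2.18) from 186 heart and 457 midbrain reads, and over the last 100 kb it was 0.965 (interval 0.723 to 1.27) from 63 and 294. The heart excess of the window therefore lay in its first 250 kb, a division chosen after the values had been seen.

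Bins of 10 kb, also added after the reads had been seen, resolved the excess further. The interval lay above 1 in 7 of 35 bins (20%), where 4.74% of all 10 kb bins had such an interval, and below 1 in 1 bin, where the figure was 2.6%. The highest ratio was at 147350001 to 147360000, with 11 heart reads (8.44 rpm) and 8 midbrain reads (1.36 rpm), a ratio of 6.19 (interval 2.27 to 17.7). The bin at 147330001 to 147340000 held 16 heart reads (12.3 rpm), the most of any 10 kb bin in the window, and 18 midbrain reads (3.07 rpm, ratio 4.002, interval 1.91 to 8.31). The ratio was 2.501 (interval 1.03 to 5.71) in the bin between them, 147340001 to 147350000, from 10 heart and 18 midbrain reads. These 3 adjacent bins span 130 to 160 kb from the window start and together held 37 heart reads (28.4 rpm) and 44 midbrain reads (7.50 rpm), a ratio of 3.79 (interval 2.38 to 5.998). They were pooled because each interval lay above 1, so the pooled ratio and that of the fully aligned reads are descriptions. With fully aligned reads alone they held 32 and 37 reads and the ratio was 3.598 (interval 2.17 to 5.94).

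The other 10 kb bins with an interval above 1 lay apart from this stretch. The starts were 147240001 with 12 heart and 22 midbrain reads, at 147270001 with 15 and 30, at 147310001 with 14 and 27, and at 147410001 with 12 and 18. Their ratios ran from 2.25 to 3.001. The bin on the midbrain side was 147500001 to 147510000, with 3 heart reads (2.30 rpm) and 43 midbrain reads (7.33 rpm), a ratio of 0.314 (interval 0.0623 to 0.981). Across the genome 11991 bins of 10 kb had an interval above 1 and 2137 of them (17.8%) overlapped a listed heart peak. Such an interval was found in 61.3% of the 3485 bins with a heart peak and in 3.95% of the 249539 bins without one. Runs of 3 or more adjacent bins with an interval above 1 numbered 437, and 185 of these runs touched no heart peak.

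**Figure D2:**
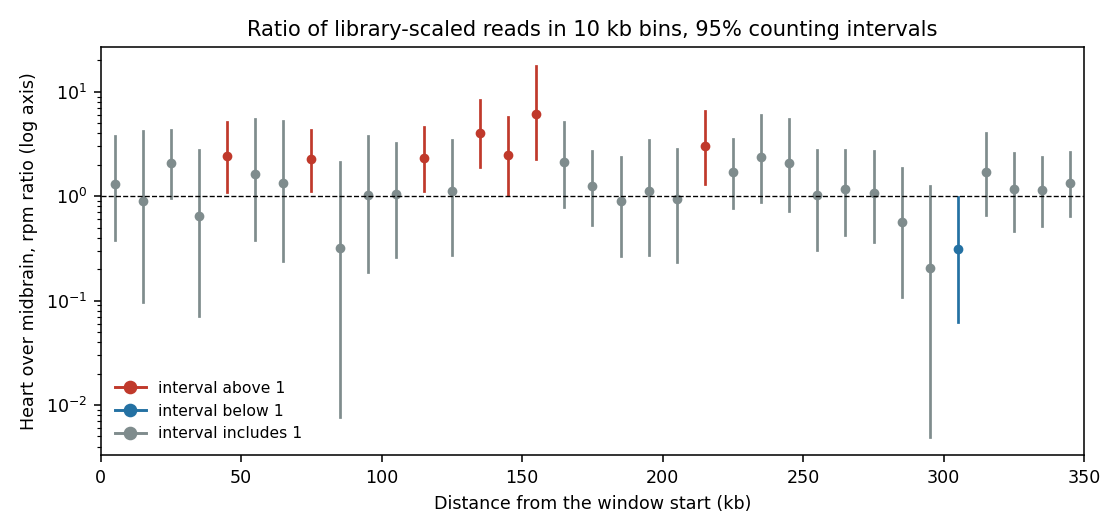
Heart over midbrain ratio of rpm (log axis) in the 35 bins of 10 kb against distance from the window start in kb, with points for the ratio and lines for the 95% counting interval. The 3 adjacent bins from 130 to 160 kb lie above 1 and the bin at 300 kb lies below it.

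At 1 kb most bins held few heart reads, as they did over the genome. Of the 350 bins, 305 held a read and 142 of these held no heart read (46.6%, against 58.0% of all bins with a read). There were 20 bins with 3 or more heart reads (6.56% of bins with a read, against 3.26% of all such bins). Of these, 5 held 4 or more (1.64% against 1.08%). None reached 10, which 0.0224% of all such bins did. The interval of the ratio lay above 1 in 9 of the 305 bins (2.95%, interval 1.36 to 5.53), where 1.21% of all 1 kb bins had such an interval, and in no bin did it lie below 1, where the figure was 0.0263%. At these depths 3 heart reads with 0 midbrain reads are needed to place the interval above 1, and 19 midbrain reads with 0 heart reads to place it below. No bin of the window held more than 13 midbrain reads, so a midbrain excess was not detectable in any of them.

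The bin with the most heart reads was 147222001 to 147223000, with 7 heart reads (5.37 rpm) and 6 midbrain reads (1.02 rpm). Its ratio was 5.25 (interval 1.51 to 18.9), and the mean coverage in the deposited track, scaled to 1000000 reads, was 1.59 in heart and 0.321 in midbrain. Next was 147420001 to 147421000, with 5 heart and 6 midbrain reads and an interval that included 1 (0.906 to 14.8). The bin at 147476001 to 147477000 held 4 heart reads and 1 midbrain read (ratio 18.0, interval 1.78 to 887), and the one at 147339001 to 147340000 held 4 and 3 (ratio 6.002, interval 1.02 to 41.0). The bin at 147243001 to 147244000 held 4 and 5 reads and its interval included 1 (0.715 to 16.7). Few reads stand behind each of these ratios, and their intervals are wide.

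Of the other bins on the heart side, 4 held 3 heart reads and 0 midbrain reads, which gives a lower bound of 1.86 and no upper bound. They began at 147315001, 147359001, 147413001 and 147538001. The bins that began at 147334001 and 147343001 held 3 heart reads and 1 midbrain read each (ratio 13.5, interval 1.08 to 709). The bins at 147334001, 147339001, 147343001 and 147359001 all lie in the 30 kb stretch with 3 adjacent 10 kb bins above 1, which was picked on these same reads.

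Midbrain reads had their own high points. The bins at 147505001 to 147506000 and 147533001 to 147534000 held 13 midbrain reads each (2.21 rpm) and 0 heart reads, where a count of 0 allows up to 2.30 rpm in heart. Neither interval excluded 1 (upper bound 1.48). The bin at 147375001 to 147376000 held 10 midbrain reads (1.70 rpm) and 1 heart read (0.767 rpm, ratio 0.450, interval 0.0104 to 3.16). The bins at 147545001 and 147314001 held 9 and 8 midbrain reads with 3 and 2 heart reads. The highest midbrain and the highest heart bins were thus different bins.

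**Figure D3:**
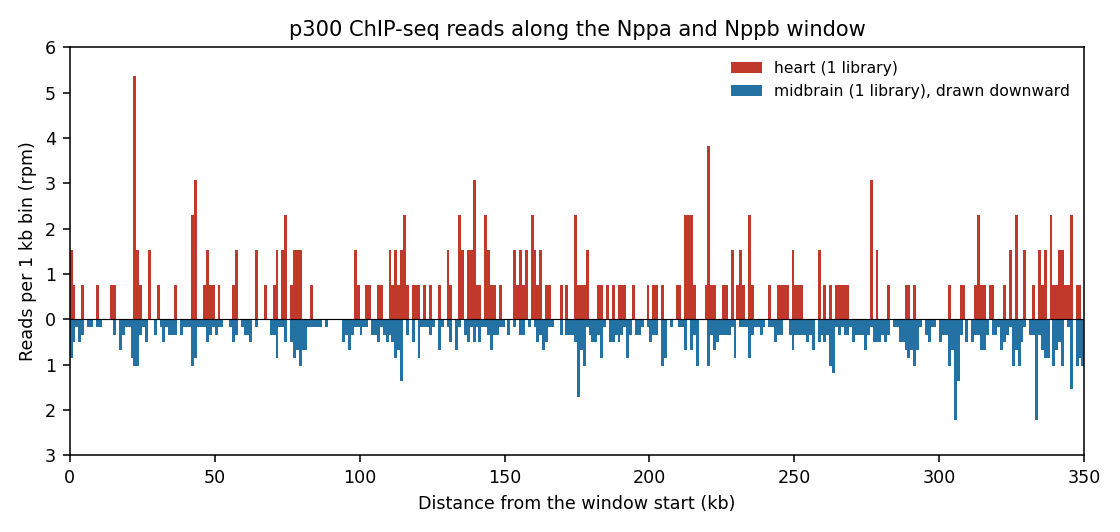
Reads per 1 kb bin in rpm along the window, with heart drawn upward and midbrain downward (1 library each) against distance from the window start in kb. The tallest heart bin lies at 22 kb (5.37 rpm) and the tallest midbrain bins at 305 and 333 kb (2.21 rpm each).

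The last question was how close the locus came to the signal of a listed heart peak. The densest stretch as wide as the median heart peak (662 bp) held 6 heart reads, 3 on each strand, which is also the median number of heart reads in a listed heart peak (quartiles 5 and 7). It began at 147222313, and its 6 reads were centred between there and 147222602. The midbrain library had 4 reads in the same stretch (0.681 rpm against 4.60 rpm in heart, ratio 6.75, interval 1.60 to 32.5). Of the 3597 listed heart peaks, 2479 (68.9%) held no more than 6 heart reads and 1541 held exactly 5. Taken over 1 kb from the same start, 9 heart reads stood against 5 midbrain reads, a ratio of 8.10 (interval 2.44 to 30.8). The stretch was picked for its heart reads, so its ratio is a description. Such unlisted stretches were not rare: 795 of the 5199 windows without a heart peak (15.3%) held one with 6 or more heart reads.

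**Figure D4:**
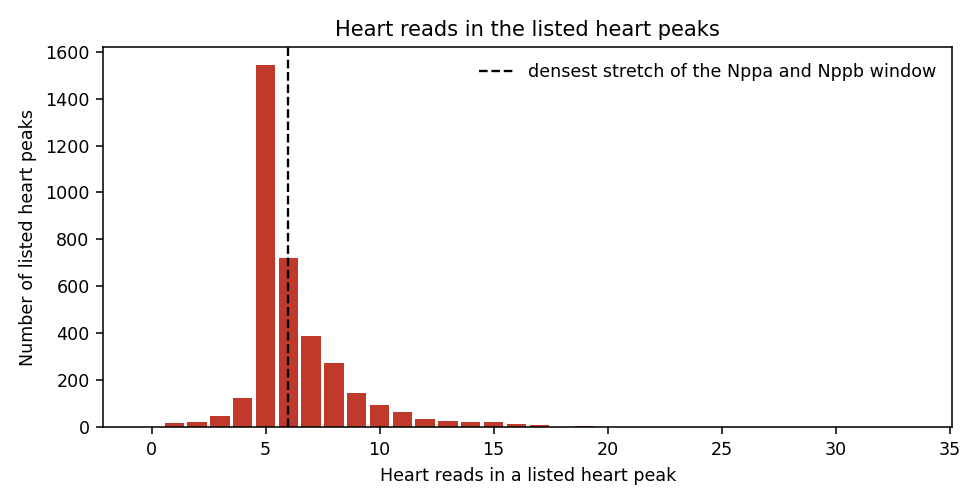
Number of listed heart peaks (vertical axis) by the heart reads each holds (horizontal axis). The dashed line marks the 6 heart reads of the densest unlisted stretch in the Nppa and Nppb window, to the right of the tallest bar at 5 reads.

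The deposited coverage track sums to 100.3% of the aligned reads times 300 bp in both libraries, so it is another view of the same reads. Heart coverage in the window reached 5 lengthened reads, at 147222363 to 147222462, and 3 or more over 0.386% of the window. The highest coverage within a listed heart peak had a median of 4 (quartiles 3 and 5), and 2393 of the 3597 heart peaks (66.5%) stayed below 5. Over the genome 2124 runs of heart coverage peaked at exactly 5, and 1054 of them (49.6%) touched a listed heart peak. The criteria of the peak list are not given in the sources used here, and why this run is not among them was not tested. Within 1 kb after this summit the heart track rose a second time, to a coverage of 3. Midbrain coverage reached 7 in the window, at 147463013 to 147463037 and 147533888 to 147533962, where listed midbrain peaks had a median highest coverage of 10 (quartiles 8 and 12). The mean coverage over the window, scaled to 1000000 reads, was 0.164 in heart and 0.110 in midbrain.

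**Figure D5:**
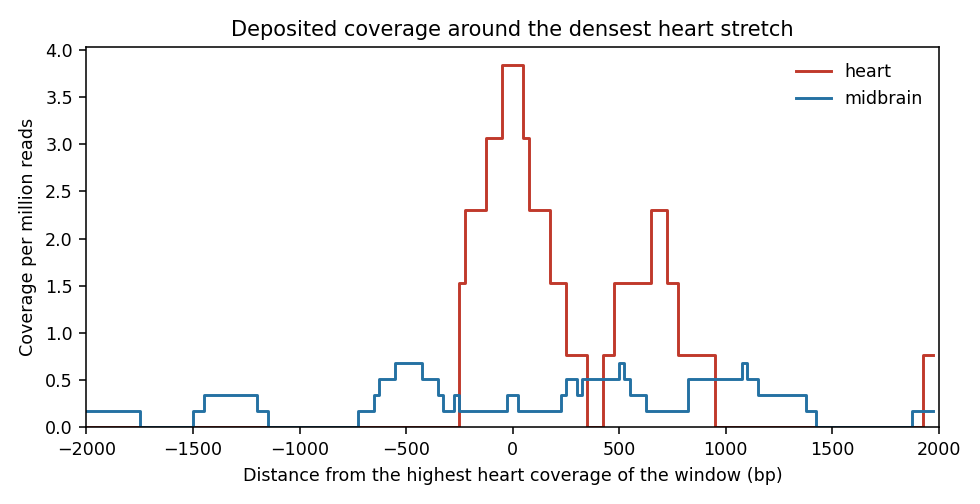
Deposited coverage scaled to 1000000 reads (vertical axis) in heart and midbrain to either side of the highest heart coverage of the window (horizontal axis, in bp). Scaled coverage reaches 3.83 in heart at the centre, where it is 0.341 in midbrain.

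At full depth the densest midbrain stretch of the median midbrain peak width (743 bp) held 13 midbrain reads and 0 heart reads, at 147505345 to 147506087, where listed midbrain peaks held a median of 15 (quartiles 11 and 22). As many reads in such a stretch were reached in 15.2% of the windows without a midbrain peak. When the midbrain library was thinned to as many reads as heart, in 1 random draw, no midbrain stretch of that width held more than 4 reads, which 74.1% of those windows reached.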

How the data were processed

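Per the labels' protocols, gel-purified ChIP DNA of 300 to 500 bp was sequenced in 36 bp reads. The shared protocol text does not name heart. The authors deposited aligned reads as positions, 1 read count per line, on mm9 per the submitters' processing notes. On the values, reads had been lengthened to 300 bp (all but 24 heart and 48 midbrain lines), and no position and strand repeated. The coverage signal that the authors deposited is unscaled, at 25 bp steps, per the file headers. The peak lists give positions and ranks, and every rank is present. Peak caller, thresholds and controls are not given in the sources used here.

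A read was placed at its lengthened centre, 150 bp from the 5 prime end, and scaled to all aligned reads of its library. Shifts of 23 bp (heart) and 34 bp (midbrain), estimated earlier between strands, were an alternative, since the heart value lay at the edge of its search. Intervals are 95% exact (conditional binomial, Poisson or Clopper-Pearson), and a count of 0 was taken to allow 3 reads. The ratio interval was tested on counts simulated under the Poisson model that it assumes, which leaves the spread between embryo pools untested. The software was numpy 2.4.6, scipy 1.17.1, pandas 2.3.3 and matplotlib 3.10.9 under Python 3.11.15.

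All listed peaks of the window, the 5 bins of 1 kb highest in heart rpm and the 5 highest in midbrain rpm were to be named. Members and lists were chosen with earlier results of these data known. Bins of 10 kb, parts, windows by peak number, the densest stretch and the fully aligned reads were added after the reads had been seen, and bins whose interval lay above 1 were named then. With no peak in the window, the planned ratios and enrichments at its peaks had no value. No mm9 sequence was used, so motifs under reads were not searched.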

Additional observations from a re-analysis of the deposited data

How the results depend on the processing

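With 1 library per tissue there is no measure of the spread between embryo pools, and the heart depth leaves most 1 kb bins with 0 to 2 heart reads. The ratio of the window stayed within the interval of its reported value under the other placement (1.497), both other scalings (1.51 and 1.48), the coverage track (1.496), thinned midbrain reads (1.39) and fully aligned reads (1.42). The coverage track and the other placement use the same reads, so over a window this long they could hardly change the ratio. Leaving out no flank or 2 kb around peaks and counting any overlap of a peak could not change a value, because no listed peak lies there. Every window holds at least the 0 heart peaks of the locus, so moving the windows could not change the share with as many. The share of windows with no heart peak was 71.9%, and 72.0% with the windows moved by 175 kb. Bins of 500 bp gave 5 bins above 1 in place of 9 (1.03% of bins with a read, against 0.571% of all such bins), since fewer reads fall in each bin. Bins of 2 kb gave 6 (3.49% against 2.07%), and the other placement gave 12 bins of 1 kb (3.91% against 1.23%), of which 8 were among the 9. The share of windows with a higher ratio fell from 8.38% to 2.90% when only windows without listed peaks were taken. No alternative turned a direction. The ratios and enrichments planned at peaks of the window were not run, for want of a peak. No paired analysis was possible because each tissue has 1 library.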
